A study of Mus musculus with 10 samples.

Results

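The genes described here are 35 lysosomal hydrolases, activators and membrane proteins, other than cathepsins and the proton pump, chosen by symbol from the 55858 genes of the deposited table. Each symbol was listed once, and all 35 genes passed the filter on low values (at least 1 TPM in at least 5 of the 10 libraries). Gla did so through 1 group alone, as described below. RNA was taken from hearts of mice at postnatal day 10. All 10 animals carried the genotype labelled MCM; Chmp4bF/F, and 5 of them (cKO) received subcutaneous tamoxifen, 0.1 mg/g on each of 2 days from postnatal day 0, to delete Chmp4b, an ESCRT-III gene, while 5 (control) received corn oil. What MCM stands for, and which promoter drives it, is not spelled out in the labels. Tamoxifen went to the cKO animals alone, so the drug and the deletion cannot be told apart.

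The lysosome is the acid compartment in which cells take apart material delivered by endocytosis and autophagy. Soluble hydrolases are tagged with mannose 6-phosphate and carried there from the Golgi, activator proteins lift lipids out of the membrane for some of them, and heavily glycosylated membrane proteins line the limiting membrane. Many of these genes carry copies of an E-box element in their promoters that is bound by transcription factors of the MiT/TFE family, and loss of single enzymes causes storage diseases, several of which affect heart muscle.

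Values are TPM, transcripts per 1000000, which are levels per gene length and add up to the same total in every library. Mitochondrially encoded transcripts took 35.5% to 41.5% of that total in cKO and 50.0% to 59.4% in control libraries. The same TPM were also divided by a size factor per library, the median ratio over genes, and are then called relative levels. Differences are of log2(value + 1), cKO minus control, tested with limma, and a gene is said to rise or fall where its Benjamini-Hochberg adjusted p over all 13282 tested genes was under 0.05. The median difference of all tested genes was 0.63 as deposited and 0.01 on the relative scale. The TPM of Chmp4b was 47.4 ± 8.61 over control and 38.2 ± 1.42 over cKO libraries (SD, n = 5 each), a difference of -0.29 (exact permutation p = 0.0476, two-sided). That call was lost without any 1 cKO library or without control replicate 6, 8 or 9 (exact permutation p from 0.0556 to 0.0952). The labels do not say which piece of Chmp4b is deleted, and a value for the whole gene also counts what lies outside it. On the relative scale the difference was -1.01 without overlap (two-sided exact permutation p = 0.00794, the smallest possible with 5 libraries against 5). The cardiomyocyte markers Myl2 and Tnnt2 averaged 14571 and 5644 TPM in cKO and 12366 and 6094 TPM in control hearts. They do not stand for all 10 listed cardiomyocyte markers. Of those, 4 fell and 0 rose as deposited, with Ryr2 the lowest (-0.97), and 10 fell on the relative scale. Xist, the transcript of the inactive X chromosome, was at least 1 TPM in cKO replicates 1, 5 and 7 and in 0 control libraries, so these 3 animals differed in sex from the other 7.

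Of the 35 lysosomal genes, 22 rose, 1 fell and 12 were not called on the relative scale, where 20.8% of all tested genes rose and 20.8% fell. Their median difference was 0.39, with a range from -0.46 (Smpd1) to 1.19 (Hexa), and 32 of the 35 differences were above 0. As deposited all 35 rose, on a scale where 76.5% of all tested genes rose and 3.46% fell, with a median of 1.02. Relative levels did not overlap between the groups for 19 genes that were higher and 1 that was lower in cKO, against 15.8% and 15.5% of all tested genes. As deposited 33 genes were higher and 0 lower without overlap (Arsa and Idua overlapped), against 62.5% and 1.92% of all tested genes. With TPM closed again without the mitochondrially encoded genes, 32 of the 35 rose and 1 fell, where 45.7% of genes rose and 10.4% fell, and Arsa and Idua were not called. Gla passed the filter through the cKO libraries alone (1.44 to 2.23 TPM, against 0.607 to 0.982 TPM in control libraries). That filter favoured its rise and lack of overlap as deposited, and its rise without mitochondrially encoded genes, so Gla lends these counts no support. Among the 2 cKO and 5 control libraries without Xist, 16 genes rose and 1 fell on the relative scale, all 16 from among the 22. With Ddx3y as a covariate 18 rose and 1 fell, all 18 from among the 22. Both fits also called fewer of all tested genes, so the 20.8% above is not their background. Without Xist libraries 1642 of all genes rose and 1819 fell, against 2763 and 2766 over all 10 libraries. With the Ddx3y covariate, the numbers of all genes that rose and that fell both lay between these. The calls not made in the libraries without Xist were those of Acp2, Dnase2a, Gm2a, Ids, Neu1 and Tpp1.

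**Figure D1:**
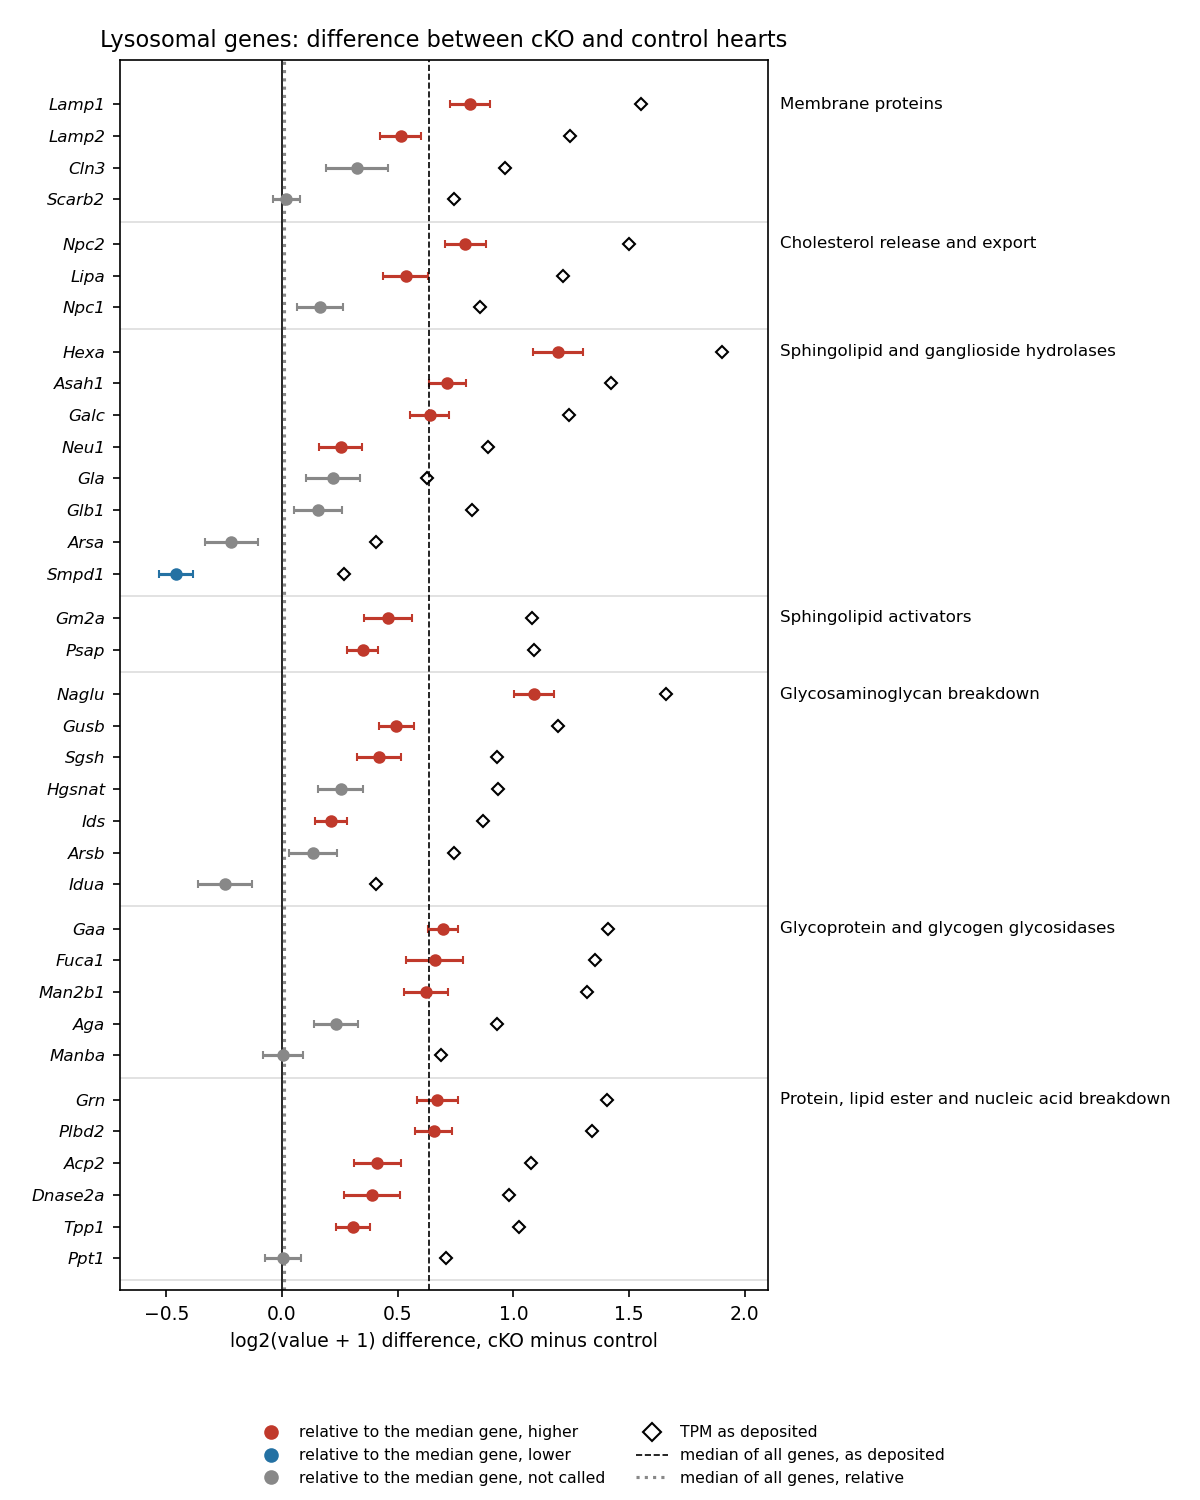
Difference in log2(value + 1), cKO minus control, for each of the 35 lysosomal genes by role. Circles with SE bars are relative levels, coloured by call, open diamonds are TPM as deposited, and the dashed and dotted lines mark the median of all tested genes on each scale; 32 of the 35 circles lie above 0, and Smpd1 is the 1 gene called lower.

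In the same hearts, 14 of 14 tested macrophage markers (15 listed) rose on the relative scale, with a median difference of 1.57, and their summed relative level was 403 to 589 in cKO and 123 to 147 in control libraries. Of the 14, Fcgr1 passed the filter through the cKO libraries alone (3.89 ± 1.23 TPM, against 0.325 ± 0.0892 TPM in control, SD, n = 5). The filter thus favoured its rise, which lends that count no support. Fibroblast markers rose in 6 of 6 (median 0.62, sums of 966 to 1207 against 603 to 771), endothelial markers fell in 9 of 9 (median -0.55) and cardiomyocyte markers fell in 10 of 10 (median -0.95). As deposited 0 of the 9 endothelial and 4 of the 10 cardiomyocyte markers fell, and 0 of either rose. None of the 40 cell type markers was at 0 in any library. Macrophages are rich in lysosomes, and their part in the rises of the lysosomal genes was not tested. In bulk heart RNA, fewer cells of a type and less RNA per cell cannot be told apart.

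The summed TPM of the 35 genes was 1762, 1511, 1674, 1426 and 1757 in cKO replicates 1, 3, 5, 6 and 7, and 631, 800, 771, 716 and 593 in control replicates 4, 6, 8, 9 and 13. The lowest cKO sum was thus well above the highest control sum. The groups also stayed apart on the relative scale, at 1146 to 1394 in cKO and 846 to 946 in control libraries, a ratio of means of 1.39. Among the cKO libraries, replicate 7 had the highest relative level for 19 of the 35 genes. It also had the highest macrophage sum and the lowest mitochondrially encoded share (35.5%). Replicate 3 had the lowest relative level for 17 genes and the lowest relative macrophage, fibroblast and endothelial sums. As deposited, replicate 3 kept the lowest endothelial sum. Replicate 6 then had the lowest macrophage (510 against 531 TPM in replicate 3) and fibroblast sums (1194 against 1274 TPM), and the lowest sum of the 35 genes. The order also followed Xist. Relative sums of the 35 genes were 1269, 1244 and 1394 with Xist (replicates 1, 5 and 7) and 1146 and 1185 without it (3 and 6). Macrophage sums were 522, 488 and 589 against 403 and 424. What orders these libraries was not tested. The median coefficient of variation over the genes was 11.1% among cKO and 10.6% among control libraries. By TPM in cKO hearts the most abundant were Psap (424 ± 30.7), Lamp1 (333 ± 45.4), Grn (123 ± 17.6) and Lamp2 (113 ± 15.3), and the least abundant were Sgsh (3.64 ± 0.170) and Gla (1.81 ± 0.384) (SD, n = 5). Psap and Lamp1 also led in control hearts, and Grn and Lamp2 changed places there, at 46.0 ± 7.01 and 47.4 ± 8.99, less than 1 SD apart. Hexa took place 6 in cKO and place 12 in control hearts, while Smpd1 took places 7 and 5.

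**Figure D2:**
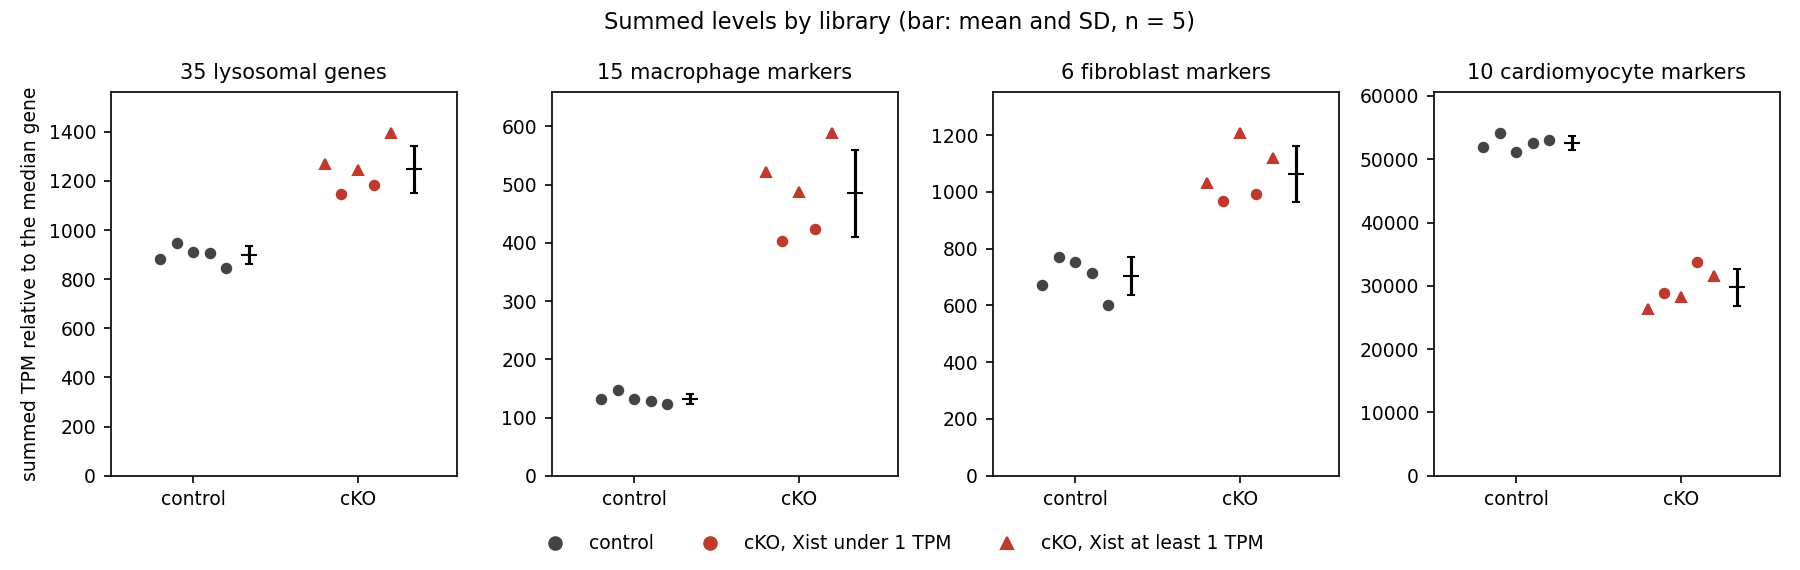
Summed relative TPM per library of the 35 lysosomal genes and of 3 lists of cell type markers, with the mean and SD of 5 libraries. Lysosomal, macrophage and fibroblast sums are higher and cardiomyocyte sums lower in every cKO library than in every control library; triangles mark cKO libraries with Xist of at least 1 TPM.

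Promoters were searched because MiT/TFE factors bind an E-box. RefSeq promoter windows on GRCm38.p6, 250 bases before to 50 after the start, matched 30 of the 35 genes by symbol. The letters CACGTG, which read the same on both strands, were found in the windows of 8 of the 30 genes (26.7%), against 8.09% of all 27025 genes with a window and 11.7% of the 9822 other tested genes. All 8 also held the longer TCACGTG, or CACGTGA on the other strand, which contains CACGTG and was found for 4.29% of all genes and for 6.87% of the other tested genes. The 8 were Naglu, Lamp1, Gaa, Sgsh, Cln3, Gla, Glb1 and Arsa. Of these, 4 rose on the relative scale (median difference 0.37), and of the 22 genes with a window that lacked the letters 16 rose and 1 fell (median 0.40), so members with and without them had like medians. Among the other tested genes, 26.2% of 675 with TCACGTG rose and 17.6% fell, and 21.2% of 9147 without it rose and 21.3% fell. A match describes letters in a window and is not a measured site. The 5 with the highest relative difference are shown 5′ to 3′ on the strand of the gene, with each match in capitals. Those of Naglu (chr11:101069844-101070143, plus strand), Lamp1 (chr8:13158911-13159210, plus), Gaa (chr11:119267713-119268012, plus), Sgsh (chr11:119355461-119355760, minus) and the one of the 2 listed windows of Cln3 that holds a match (chr7:126583187-126583486, minus) read as follows.
Naglu: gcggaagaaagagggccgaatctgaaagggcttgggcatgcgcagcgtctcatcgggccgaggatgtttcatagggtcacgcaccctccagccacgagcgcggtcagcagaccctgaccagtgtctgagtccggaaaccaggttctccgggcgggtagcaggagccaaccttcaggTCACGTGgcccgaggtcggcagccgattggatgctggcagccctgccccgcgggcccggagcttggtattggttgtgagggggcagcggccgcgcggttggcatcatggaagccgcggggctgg
Lamp1: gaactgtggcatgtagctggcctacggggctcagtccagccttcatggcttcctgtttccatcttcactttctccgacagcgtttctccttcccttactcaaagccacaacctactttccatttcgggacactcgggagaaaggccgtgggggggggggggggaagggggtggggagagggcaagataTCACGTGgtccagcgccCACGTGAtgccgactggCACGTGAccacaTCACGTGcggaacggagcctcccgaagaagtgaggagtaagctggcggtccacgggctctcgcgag
Gaa: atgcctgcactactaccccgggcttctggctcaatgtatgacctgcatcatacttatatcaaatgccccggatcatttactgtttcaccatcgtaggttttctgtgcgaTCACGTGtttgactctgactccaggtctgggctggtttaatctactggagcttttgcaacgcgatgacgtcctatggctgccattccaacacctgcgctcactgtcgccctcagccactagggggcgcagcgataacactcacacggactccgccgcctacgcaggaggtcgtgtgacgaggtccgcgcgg
Sgsh: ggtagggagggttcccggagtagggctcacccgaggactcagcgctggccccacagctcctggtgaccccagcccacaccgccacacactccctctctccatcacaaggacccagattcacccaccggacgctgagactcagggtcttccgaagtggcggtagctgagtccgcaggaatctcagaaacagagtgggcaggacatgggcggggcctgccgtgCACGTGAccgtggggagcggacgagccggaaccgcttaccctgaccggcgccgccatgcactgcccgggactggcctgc
Cln3: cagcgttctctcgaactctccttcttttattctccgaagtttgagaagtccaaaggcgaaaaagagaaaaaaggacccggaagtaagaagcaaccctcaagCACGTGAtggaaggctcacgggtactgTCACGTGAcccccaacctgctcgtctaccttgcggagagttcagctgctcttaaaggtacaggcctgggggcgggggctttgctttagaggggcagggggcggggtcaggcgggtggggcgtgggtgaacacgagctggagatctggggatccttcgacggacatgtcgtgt
The Lamp1 window held CACGTG at 4 places, beginning between 61 and 15 bases before the start. Cln3 had 2, at 149 and 121 bases before it. Single matches began 73, 140 and 29 bases before the start of Naglu, Gaa and Sgsh.

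Of the 4 membrane proteins, Lamp1 and Lamp2 rose on the relative scale, and Cln3 and Scarb2 were not called. Lamp1 (ENSMUSG00000031447.8, chr8:13159161-13175338 on GRCm38, plus strand), the main glycoprotein of the limiting membrane, had relative TPM of 256, 224, 262, 230 and 306 in cKO and 148, 155, 147, 138 and 135 in control libraries. Every cKO value was above every control value, for a relative difference of 0.81 ± 0.09 SE (limma adjusted p = 1.8e-05). Lamp2, its partner needed for fusion with autophagosomes and lost in Danon cardiomyopathy, had 93.7, 81.8, 87.0, 74.5 and 95.4 in cKO and 55.6, 69.0, 62.8, 61.6 and 52.6 in control libraries, again without overlap (0.51 ± 0.09 SE, limma adjusted p = 0.00073). Lamp2 is X-linked, and both cKO libraries without Xist (81.8 and 74.5) also exceeded the highest control value. Scarb2, a membrane protein also known as LIMP-2, had 44.7, 39.4, 40.2, 39.8 and 42.0 in cKO and 37.7, 39.4, 42.0, 42.5 and 41.8 in control libraries. These ranges overlapped over most of their width (0.02, limma adjusted p = 0.83), while as deposited Scarb2 rose by 0.74, from 31.8 ± 3.53 to 53.8 ± 5.18 TPM (SD, n = 5). Cln3, a membrane protein lost in juvenile Batten disease, stood at 0.32 (limma adjusted p = 0.0762) and rose without cKO replicate 3, its lowest cKO library (0.44, limma adjusted p = 0.00955), as it did without the 100 most abundant genes (0.42, limma adjusted p = 0.0485).

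Lipa and Npc2 rose and Npc1 was not called, among the genes for freeing cholesterol from lipoproteins and moving it out. Npc2, the soluble protein that hands cholesterol to the membrane, had 30.9, 29.1, 28.7, 29.2 and 36.5 relative TPM in cKO and 16.3, 20.4, 18.2, 16.6 and 15.6 in control libraries. The groups did not overlap (0.79 ± 0.09 SE, limma adjusted p = 2.71e-05). Npc1, the membrane protein that takes cholesterol over from it, had 16.6, 14.6, 13.5, 13.7 and 13.7 in cKO and 14.6, 14.9, 12.7, 11.3 and 10.8 in control libraries, with control replicates 4 and 6 as high as most of the cKO libraries (0.16, limma adjusted p = 0.207). Lipa, the acid lipase that splits cholesterol esters, rose by 0.53 on the relative scale without overlap, from 9.51 ± 1.29 to 14.2 ± 1.58 relative TPM (SD, n = 5).

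Of 8 hydrolases of sphingolipids and gangliosides, Hexa, Asah1, Galc and Neu1 rose, Smpd1 fell, and Gla, Glb1 and Arsa were not called on the relative scale. Hexa (ENSMUSG00000025232.9, chr9:59539540-59565109, plus strand), whose loss causes Tay-Sachs disease, had 37.4, 32.4, 39.1, 33.9 and 46.4 relative TPM in cKO and 16.5, 18.1, 17.1, 15.2 and 12.9 in control libraries. Its lowest cKO value lay above its highest control value, and it was the member with the highest difference (1.19 ± 0.11 SE, limma adjusted p = 6.64e-06). That place depends on the setting. With 0.1 in place of 1 added to the values, Naglu stood higher than Hexa (1.35 against 1.24). It also did so without the 100 most abundant genes (1.33 against 1.29). As deposited Hexa rose from 12.5 ± 2.47 to 49.3 ± 7.37 TPM (SD, n = 5).

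Smpd1 (ENSMUSG00000037049.10, chr7:105554360-105558389, plus strand), the acid sphingomyelinase that turns sphingomyelin into ceramide, went the other way. Its relative TPM were 33.5, 34.7, 33.98, 40.3 and 40.6 in cKO and 52.4, 46.8, 51.1, 54.6 and 48.1 in control libraries. Each cKO library lay below each control library (-0.46 ± 0.07 SE, limma adjusted p = 0.000432). As deposited it went up, from 39.5 ± 4.04 to 47.5 ± 2.31 TPM (SD, n = 5), a rise of 0.27 (limma adjusted p = 0.0133) that was the smallest of the 35 and was not called with the Ddx3y covariate or among libraries without Xist (limma adjusted p = 0.0501 and 0.113). Smpd1 was called lower in every fit run on the relative scale, and also in TPM without mitochondrially encoded genes, by less (-0.17, limma adjusted p = 0.0445). Asah1, the acid ceramidase that acts on the ceramide made by Smpd1, rose by 0.72 on the relative scale without overlap, from 17.2 ± 2.13 to 28.7 ± 1.26 relative TPM (SD, n = 5). Galc, which removes galactose from galactosylceramide, rose by 0.64 without overlap.

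Neu1, a sialidase, rose by 0.25 on the relative scale with overlap (limma adjusted p = 0.0492), and leaving out any 1 of 8 libraries (each cKO replicate but 3, each control replicate but 9) ended that call. It was also lost without the filter on low values and with array weights (limma adjusted p = 0.0916 and 0.0652). Glb1, the beta-galactosidase found in one complex with Neu1, stood at 0.16 (limma adjusted p = 0.249). Gla, the X-linked alpha-galactosidase A of Fabry disease, had the lowest levels of the 35, with 1.603, 1.69, 1.07, 1.29 and 1.28 relative TPM in cKO and 1.37, 0.762, 1.03, 1.23 and 0.865 in control libraries. The ranges overlapped (0.22, limma adjusted p = 0.159), and the cKO libraries with Xist were not set apart from those without it. Arsa, which removes sulfate from sulfatide, stood at -0.22 on the relative scale (limma adjusted p = 0.149) and rose by 0.41 as deposited, a call not made among libraries without Xist (0.31, limma adjusted p = 0.0984). Both activator genes rose. Psap, whose product is cut into the saposins that assist several of these enzymes, had 325, 297, 322, 324 and 357 in cKO and 244, 275, 254, 264 and 240 in control libraries. Gm2a, which lifts GM2 ganglioside from the membrane for its hydrolysis, had 6.43, 5.68, 6.69, 5.95 and 8.33 in cKO and 4.73, 4.62, 5.26, 4.11 and 3.92 in control libraries. Neither overlapped between groups, and the differences were 0.35 ± 0.07 SE for Psap and 0.46 ± 0.10 SE for Gm2a (limma adjusted p = 0.00115 and 0.00427).

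**Figure D3:**
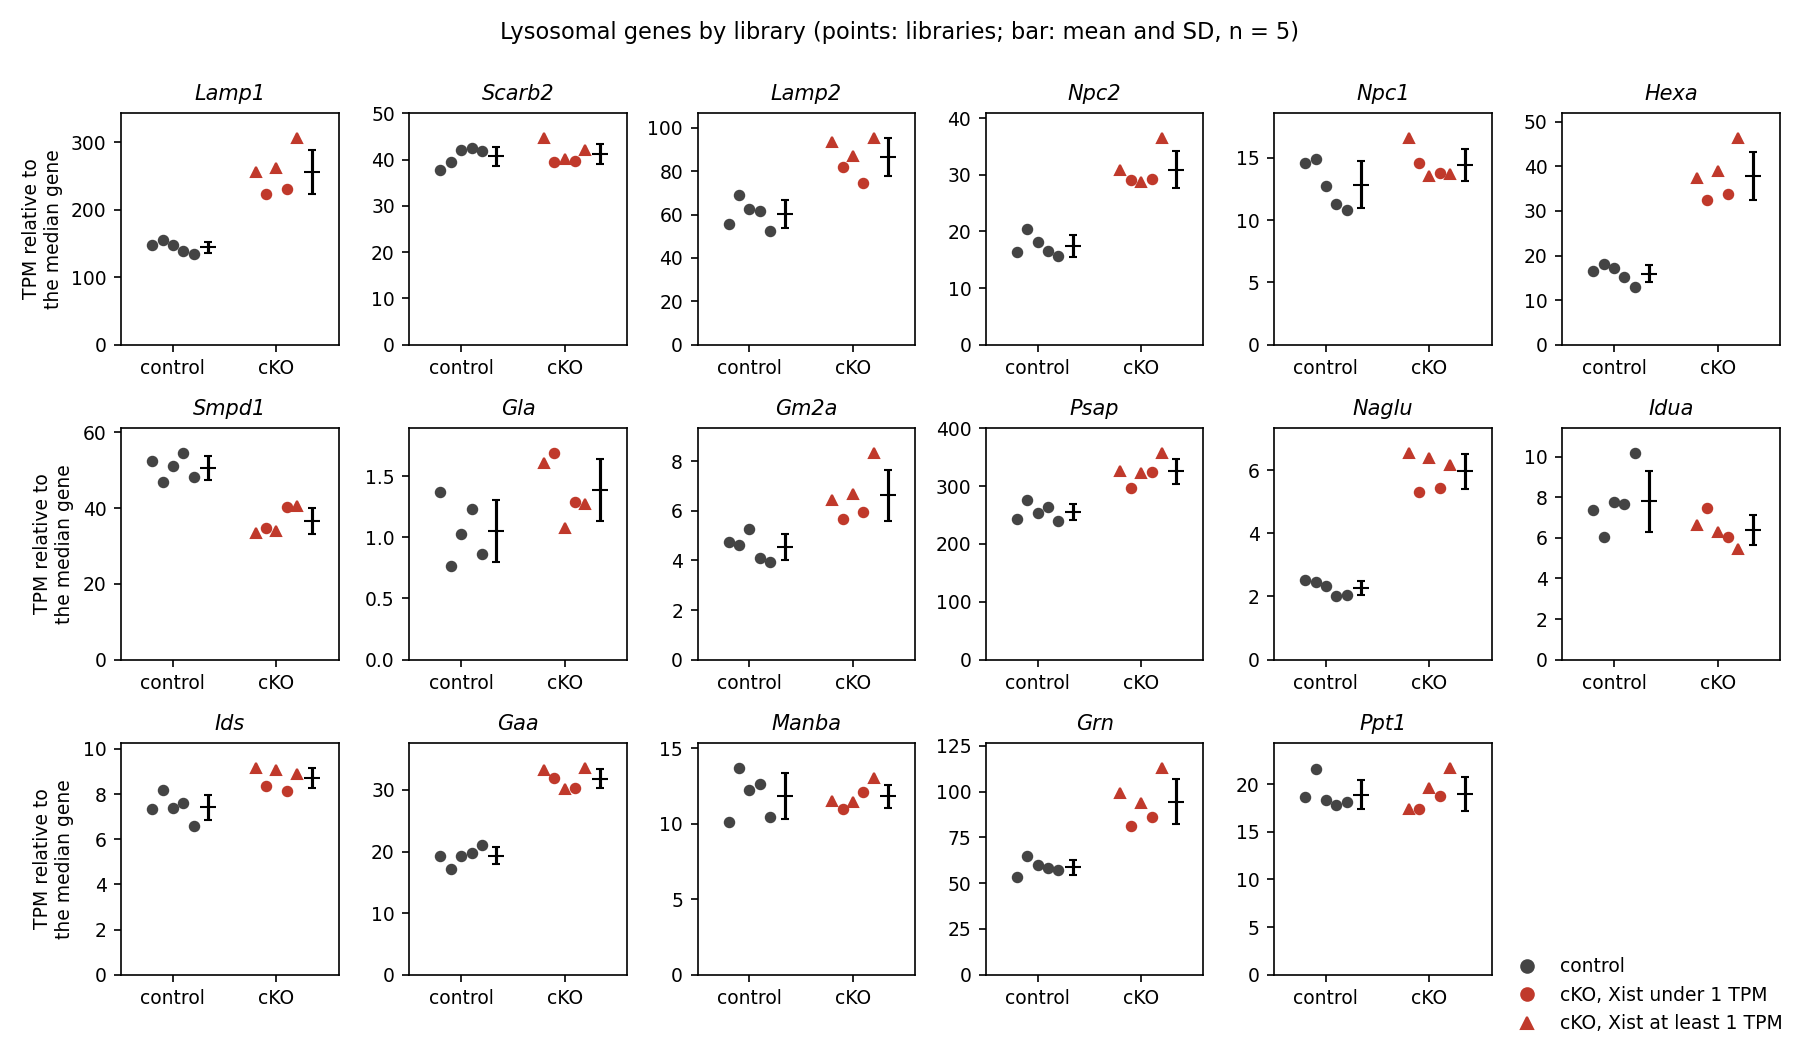
Relative TPM per library of 17 lysosomal genes (the highest and lowest difference of each role, the gene called lower and the 3 X-linked genes), with the mean and SD of 5 libraries and a separate scale from 0 for each gene. Hexa and Naglu stand highest over their controls, Scarb2, Manba and Ppt1 lie level, and every cKO value of Smpd1 is below every control value.

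Among 7 genes for breaking down glycosaminoglycans, the sulfated sugar chains of the matrix, Naglu, Gusb, Sgsh and Ids rose, and Hgsnat, Arsb and Idua were not called on the relative scale. Naglu (ENSMUSG00000001751.10, chr11:101070012-101077672, plus strand), which removes N-acetylglucosamine from heparan sulfate, had 6.55, 5.30, 6.38, 5.44 and 6.15 relative TPM in cKO and 2.53, 2.45, 2.33, 2.02 and 2.05 in control libraries. The lowest cKO value was above the highest control value (1.09 ± 0.09 SE, limma adjusted p = 2.32e-06), and the ratio of relative means, 2.62, was the highest of the 35. Naglu and Hexa (2.37) were the 2 genes whose relative mean at least doubled. Idua, the alpha-iduronidase of the same pathway, had 6.61, 7.46, 6.28, 6.06 and 5.46 in cKO and 7.39, 6.04, 7.75, 7.67 and 10.2 in control libraries. Control replicate 13 was highest, and the groups overlapped (-0.25, limma adjusted p = 0.117), but without control replicate 6 Idua fell by 0.32 (limma adjusted p = 0.0368). Ids, the X-linked iduronate sulfatase, had 9.16, 8.38, 9.07, 8.15 and 8.90 in cKO and 7.34, 8.16, 7.39, 7.58 and 6.60 in control libraries, highest in the 3 cKO libraries with Xist and overlapping at control replicate 6. It rose by 0.21 (limma adjusted p = 0.029), and the call was lost without cKO replicate 1, 5 or 7 or control replicate 4, 8 or 13 and among libraries without Xist (0.14, limma adjusted p = 0.338). Sgsh, a sulfatase, and Gusb, the beta-glucuronidase, rose by 0.42 and 0.49 without overlap. Hgsnat, the membrane enzyme that acetylates heparan sulfate for Naglu to act on, stood at 0.25 (limma adjusted p = 0.0565) and rose without control replicate 4 (0.32, limma adjusted p = 0.0199), as it did at 5 TPM or more, with upper-quartile scaling and without the 100 most abundant genes (limma adjusted p from 0.0325 to 0.049). Arsb, a sulfatase, stood at 0.13.

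Of the 5 glycosidases of glycoproteins and glycogen, Gaa, Fuca1 and Man2b1 rose without overlap, and Aga and Manba were not called on the relative scale. Gaa, the acid alpha-glucosidase that digests glycogen and is lost in Pompe disease of heart and skeletal muscle, had 33.2, 31.9, 30.2, 30.3 and 33.6 relative TPM in cKO and 19.3, 17.2, 19.2, 19.8 and 20.99 in control libraries. The groups were far apart for their spread (0.70 ± 0.06 SE, limma adjusted p = 7.27e-06). Manba, the beta-mannosidase, had 11.5, 11.0, 11.4, 12.1 and 13.01 in cKO and 10.1, 13.7, 12.3, 12.6 and 10.4 in control libraries, with the lowest and the highest of the 10 values both among controls (0.00, limma adjusted p = 0.977). Man2b1, the alpha-mannosidase of the same sugar chains, rose by 0.62, and Fuca1, which removes fucose, by 0.66. Aga, which cuts the bond between asparagine and its sugar, stood at 0.23 (limma adjusted p = 0.065) and rose without cKO replicate 3 (0.28, limma adjusted p = 0.0424), as it did with upper-quartile scaling and without the 100 most abundant genes (limma adjusted p = 0.0344 and 0.00913).

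Grn, Plbd2, Acp2, Dnase2a and Tpp1 rose and Ppt1 was not called among genes for breaking down proteins, lipid esters and nucleic acids. Grn, which encodes progranulin, a lysosomal protein that is also secreted, had 99.1, 81.3, 93.5, 85.9 and 113 relative TPM in cKO and 53.5, 64.9, 60.03, 58.2 and 57.2 in control libraries. These groups did not overlap (0.67 ± 0.09 SE, limma adjusted p = 0.000104). Ppt1, the thioesterase that strips palmitate from proteins, had 17.4, 17.4, 19.6, 18.7 and 21.7 in cKO and 18.7, 21.6, 18.3, 17.8 and 18.1 in control libraries, with the highest values of both groups nearly equal (0.00, limma adjusted p = 0.968). Tpp1, a tripeptidyl peptidase, rose by 0.31, Acp2, an acid phosphatase, by 0.41 and Dnase2a, the acid DNase, by 0.39. The call of Dnase2a was lost without cKO replicate 7 or control replicate 4 or 13 (limma adjusted p from 0.0509 to 0.0529) and without the filter on low values (limma adjusted p = 0.0556). Plbd2, which encodes a phospholipase B-like protein, rose by 0.65 and had the smallest spread among cKO libraries of the 35 (coefficient of variation 3.23%).

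Reads from overlapping genes may enter some of these values, since no source used here gives the strand setting. In GENCODE M21, 15 of the 35 genes share exon bases with another gene, and for 6 of them (Hexa, Arsa, Arsb, Sgsh, Acp2 and Dnase2a) a single neighbour on the other strand covers over 10% of the exon bases. The highest shares are those of the lincRNA gene Gm26527 with Arsb (32.3%) and of Mast1 with Dnase2a (30.0%).

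Other genes of the lysosome were read from 3 further lists, beside the 20.8% of all tested genes that rose and 20.8% that fell on the relative scale. Of 19 tested genes outside the 35, mostly for hydrolases (20 listed, Acp5 did not pass the filter), 9 rose and 0 fell on the relative scale (median 0.24). Creg1, a lysosomal glycoprotein, rose by 2.02 on the relative scale, and Man2b2, a mannosidase, by 1.15. As deposited Creg1 had 10.6 ± 2.17 TPM in control and 75.4 ± 13.3 TPM in cKO libraries (SD, n = 5), a difference of 2.72. Among 12 genes for maturing, tagging and sorting lysosomal enzymes, 5 rose and 1 fell (median 0.15). This list goes beyond mannose 6-phosphate, since it holds Sumf1, Cln6, Cln8 and Sort1. Sumf1, which activates the sulfatases, rose by 0.67, the small mannose-6-phosphate receptor gene M6pr by 0.48, and Cln6, which helps enzymes leave the endoplasmic reticulum, by 0.45. Sort1, the sorting receptor sortilin, fell by 0.41 on the relative scale and rose by 0.24 as deposited, as Smpd1 did. Gnptab, a subunit of the tagging enzyme, and Igf2r, the large receptor, stood at 0.02 and -0.01, and both were named after their values were seen. Of 18 other lysosomal membrane proteins, 7 rose and 0 fell (median 0.12), with the transporter gene Mfsd1 at 0.75, Tmem192 at 0.53 and Glmp at 0.50.

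**Figure D4:**
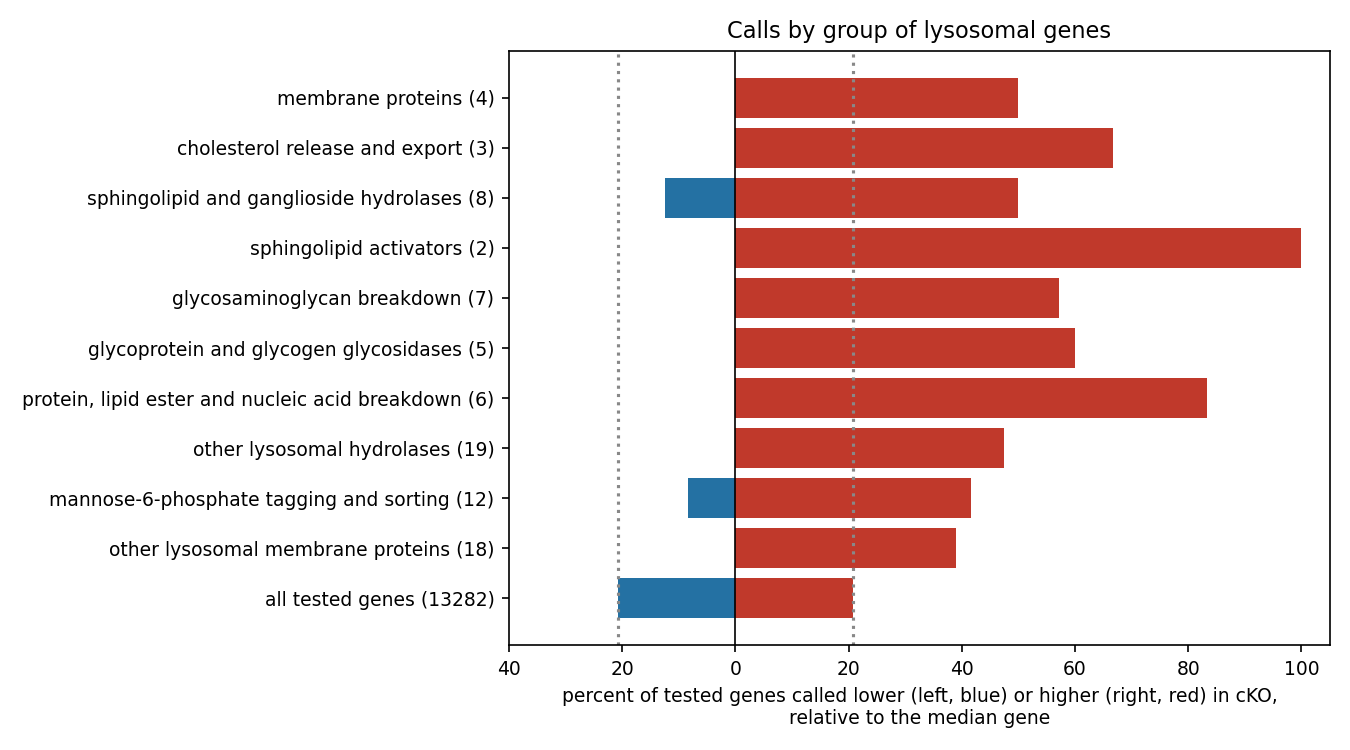
Percent of tested genes called higher (right) or lower (left) in cKO on the relative scale, for the 7 roles of the 35 lysosomal genes, 3 lists of other lysosomal genes and all tested genes, with the number tested in brackets and dotted lines at the shares of all tested genes. All 10 lysosomal groups exceed the 20.8% of all tested genes called higher, though several hold only a few genes.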

How the data were processed

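RNA of hearts from 5 cKO and 5 control mice was sequenced, per the labels' protocols. The authors deposited 1 table of TPM for 55858 genes, in which each library sums to 1000000. The submitters' processing notes name the build mm10 and, without role or order, DESeq2 1.22.2, STAR 2.7.1, HTSeq 0.11.2, Trimmomatic 0.32, FastQC 0.11.7, Picard 1.96 and bcl2fastq. The annotation release, gene lengths and strand setting are not given in the sources used here. TPM keeps no depth, so no counting interval is given.

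Groups and replicate numbers came from sample titles. Genes with at least 1 TPM in at least 5 libraries were tested as log2(TPM + 1), so differences of low genes are understated, with limma 3.58.1 in R 4.3.3 (moderated variance with a trend, two-sided), as deposited and after division by median-of-ratios size factors from 16393 genes. Single values were compared by an exact two-sided permutation test. The fit was also run on simulated data with independent normal noise and few changed genes. That setting lacks the broad shifts and the sex difference of these data, so it does not show how reliable the calls are here. Python 3.11.15, numpy 2.4.6, pandas 2.3.3, scipy 1.17.1 and matplotlib 3.10.9 were used. Gene coordinates are from GENCODE M21 (GRCm38), matched by gene ID without version for 92.1% of genes, and promoters from RefSeq (GRCm38.p6).

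The 35 genes and all lists were chosen with earlier results of these data known. Values in every library are given for the genes with the highest and lowest relative difference in each role, those called lower and the 3 X-linked ones; of other lysosomal genes, up to 3 called genes with the largest difference per list and those called lower are named, except for results not reported here. Whether the animals were littermates is not stated. The limma p-values weigh the group difference against the spread within groups, and all p-values cover these 10 libraries only. Settings varied were the pseudocount, filter, scaling, variance trend, library weights, a Ddx3y covariate, libraries without Xist and leaving out each library.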

Additional observations from a re-analysis of the deposited data

Results flagged for a closer look

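Among 70 groups of 5 libraries (35 genes in each of 2 groups, relative TPM on the log2 scale), 3 held a library far from its 4 fellows by Dixon's ratio, past the critical value of 0.71 for 5 samples; chance flags about 1 in 20 groups. Control replicate 6 was low for Cln3, at 4.25 against 5.59 to 6.10 in the other control libraries. The same library was high for Ppt1, at 21.6 against 17.8 to 18.7. In cKO replicate 3, Plbd2 stood at 17.1 against 15.9 to 16.0 in the other cKO libraries.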

How the results depend on the processing

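On the relative scale, 16 of the 22 rises held in every setting, and as deposited 33 of 35 did, in the settings run for each (Sgsh and Gla were not tested at 5 TPM or more). How many of all tested genes held in every setting was not counted, so these counts have no background. Without 1 library, 19 to 24 of the 35 genes rose and 1 to 2 fell on the relative scale (2 without control replicate 6, where Idua was added), and 35 rose and 0 fell as deposited; among all genes 2500 to 2698 rose and 2509 to 2770 fell on the relative scale, and 9763 to 10171 and 395 to 516 as deposited. Chmp4b ranged from -0.38 to -0.21 without 1 library. Libraries without Xist gave 1642 genes higher and 1819 lower on the relative scale, with fewer samples. TPM without mitochondrially encoded genes gave 6064 higher and 1373 lower and a ratio of summed TPM of the 35 genes of 1.70, against 2.32 over all TPM. Of the genes tested at 5 TPM or more, fewer in number, 293 fell as deposited. Signs turned for genes that were not called: Scarb2 (-0.0240 with the Ddx3y covariate, -0.0366 without Xist libraries; -0.0108 to 0.0342 without 1 library), Manba (-0.0076 with array weights, -0.0109 with the covariate, -0.0246 without Xist libraries; -0.0453 to 0.0553 without 1 library), Ppt1 (-0.0434 with the covariate, -0.0600 without Xist libraries; -0.0428 to 0.0509 without 1 library), and, from -0.22 and -0.25, Arsa and Idua (0.0299 and 0.0133 without mitochondrially encoded genes); the cause was not tested. No paired analysis was possible because the labels give no pairs of animals, and the groups have only 1 replicate number in common.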
